A study of Homo sapiens with 4 samples.

Results

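Intronic sites that were called accessible in C4-2BER cells and not in C4-2B cells are described here. They were selected on the presence of a peak in one deposited list and its absence from the other: each is an interval of the C4-2BER list with no base shared with any C4-2B interval, with its midpoint more than 2000 bp from every protein-coding transcription start site (TSS), inside a protein-coding gene and outside its exons. The rule was met by 9046 of the 118728 C4-2BER peaks. Peaks that met the rule are named gained, intronic peaks of both lists kept, and intronic peaks of the C4-2B list only lost. The background is 20.8% of all C4-2BER peaks without a C4-2B peak, against 21.7% of the 41713 intronic C4-2BER peaks, so introns held gained peaks at about the rate of the whole list. Of the 56207 intronic C4-2B peaks, 43.1% had no C4-2BER peak.

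ATAC-seq, which tags open chromatin with a transposase, was carried out on 4 libraries. C4-2B is an established human prostate adenocarcinoma line. C4-2BER is an enzalutamide-resistant, neuroendocrine-like line derived from it by long exposure to enzalutamide, a drug against androgen signalling, and kept in the drug, so the line and the presence of the drug cannot be told apart. Each line had 2 libraries, whose reads were merged before peaks were called. There is therefore 1 list per line, nothing below was tested between the lines, and the intervals given cover counting error only. The C4-2B list came from 1.20 times as many reads as the C4-2BER list, as recovered from the background of the peaks.

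Introns hold many of the enhancers of animal genomes, which are short stretches of open chromatin bound by transcription factors. An intronic enhancer may act on its host gene or on a neighbour, so a host gene names a place and not a target. HNF1 and HNF4 are transcription factors of liver, gut and kidney epithelium, forkhead factors such as FOXA1 open chromatin in luminal prostate cells, and CTCF binds insulators and loop anchors. Neuroendocrine prostate tumours lose androgen signalling and express neuronal genes.

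To show what these sites look like, the summit and 100 bases on either side of it are printed for the strongest gained peak of the 3 genes with the most gained peaks (PCDH9, AUTS2 and RAD51B), of the 3 genes with the most per kb of intron (OLFML3, ZNF608 and ITGB8), and of the strongest gained peak with each of 3 motifs whose share differed most by ratio between gained and lost peaks (HNF1, androgen response element and CTCF). The HNF4 sequence was added after its values were seen. All are from the plus strand of the hg38 reference. Capitals mark a match on either strand to HNF1, HNF4, CTCF, the androgen response element, forkhead (TGTTTAC), AP-1 (TGANTCA), PBX-HOX (TGATTNAT), homeobox (TAATTA), SP-KLF (GGGCGGG) or the PAX5 core (GCGTGAC) in the host gene sequences, and the named motif alone in the last 4.
PCDH9, chr13:66835211-66835411: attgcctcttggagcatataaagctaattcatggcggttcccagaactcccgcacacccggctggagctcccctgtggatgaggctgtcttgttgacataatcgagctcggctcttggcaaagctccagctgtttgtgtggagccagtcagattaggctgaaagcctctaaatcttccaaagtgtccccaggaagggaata
AUTS2, chr7:70432579-70432779: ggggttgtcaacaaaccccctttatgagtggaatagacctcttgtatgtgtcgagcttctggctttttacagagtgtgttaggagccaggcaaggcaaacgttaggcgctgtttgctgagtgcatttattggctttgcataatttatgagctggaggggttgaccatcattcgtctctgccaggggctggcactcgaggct
RAD51B, chr14:68548276-68548476: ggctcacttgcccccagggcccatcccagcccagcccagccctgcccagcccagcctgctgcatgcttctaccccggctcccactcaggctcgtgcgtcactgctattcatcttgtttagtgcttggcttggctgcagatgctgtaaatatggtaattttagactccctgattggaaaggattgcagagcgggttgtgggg
OLFML3, chr1:114024092-114024292: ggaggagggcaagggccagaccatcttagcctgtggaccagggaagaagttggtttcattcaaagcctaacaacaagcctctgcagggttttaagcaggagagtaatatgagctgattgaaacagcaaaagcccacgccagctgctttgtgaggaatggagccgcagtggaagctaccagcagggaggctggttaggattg
ZNF608, chr5:124706842-124707042: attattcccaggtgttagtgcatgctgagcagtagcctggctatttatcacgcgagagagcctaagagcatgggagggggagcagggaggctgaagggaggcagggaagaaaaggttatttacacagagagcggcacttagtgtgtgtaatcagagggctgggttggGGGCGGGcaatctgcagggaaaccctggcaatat
ITGB8, chr7:20392964-20393164: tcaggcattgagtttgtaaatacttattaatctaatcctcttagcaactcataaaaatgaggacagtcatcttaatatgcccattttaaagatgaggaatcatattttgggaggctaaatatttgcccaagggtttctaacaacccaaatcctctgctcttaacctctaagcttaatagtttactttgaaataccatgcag
BDH1, chr3:197520782-197520982: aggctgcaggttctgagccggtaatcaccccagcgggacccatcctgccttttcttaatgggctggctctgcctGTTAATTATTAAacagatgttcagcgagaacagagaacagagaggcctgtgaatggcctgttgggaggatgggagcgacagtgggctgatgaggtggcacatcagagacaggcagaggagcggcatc
TENM4, chr11:78798666-78798866: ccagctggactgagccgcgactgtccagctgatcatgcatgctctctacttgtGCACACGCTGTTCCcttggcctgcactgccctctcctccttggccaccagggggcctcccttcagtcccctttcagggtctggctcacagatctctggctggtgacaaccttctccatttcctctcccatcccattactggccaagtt
SYCP2L, chr6:10954634-10954834: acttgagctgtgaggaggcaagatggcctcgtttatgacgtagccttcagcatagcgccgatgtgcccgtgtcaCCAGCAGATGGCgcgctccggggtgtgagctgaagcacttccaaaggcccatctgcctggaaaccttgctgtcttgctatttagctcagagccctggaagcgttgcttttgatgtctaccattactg
SUPT6H, chr17:28698473-28698673: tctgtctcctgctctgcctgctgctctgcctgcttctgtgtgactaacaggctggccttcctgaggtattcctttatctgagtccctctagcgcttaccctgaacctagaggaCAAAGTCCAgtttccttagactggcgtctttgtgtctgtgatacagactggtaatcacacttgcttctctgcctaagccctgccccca
A match is a description of these letters and not of binding. Of the 6 host gene windows, only that of ZNF608 held any of these 10 motifs. The HNF1 match of BDH1 lay within a peak of 70 reads, and the HNF4 match of SUPT6H within a peak of 76 reads over the summit.

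The strength of the gained peaks was examined first. Gained peaks were weak. The summit of the median gained peak held 13 reads per 200 bp (quartiles 11 and 18), against 22 (quartiles 15 and 35) for kept peaks in the same list. Lost peaks held a median of 19 reads in the deeper C4-2B list. The fold enrichment over background had a median of 4.39 for gained, 6.18 for kept and 4.88 for lost peaks. The median width was 250 bp for gained, 362 bp for kept and 286 bp for lost peaks. By −log10 p, the median gained peak stood at the 20.9th percentile of the C4-2BER list, and the median kept peak at the 51.1st. Of the gained peaks, 1414 had a −log10 q of 10 or more (15.6%, 95% Wilson interval 14.9 to 16.4), as did 55.5% of kept peaks and 38.1% of lost peaks. More than 1 summit was found in 5.27% of gained and 14.96% of kept peaks. The lowest summit of the gained peaks held 7 reads and the lowest of the lost peaks 8, which is where the lists end.

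**Figure D1:**
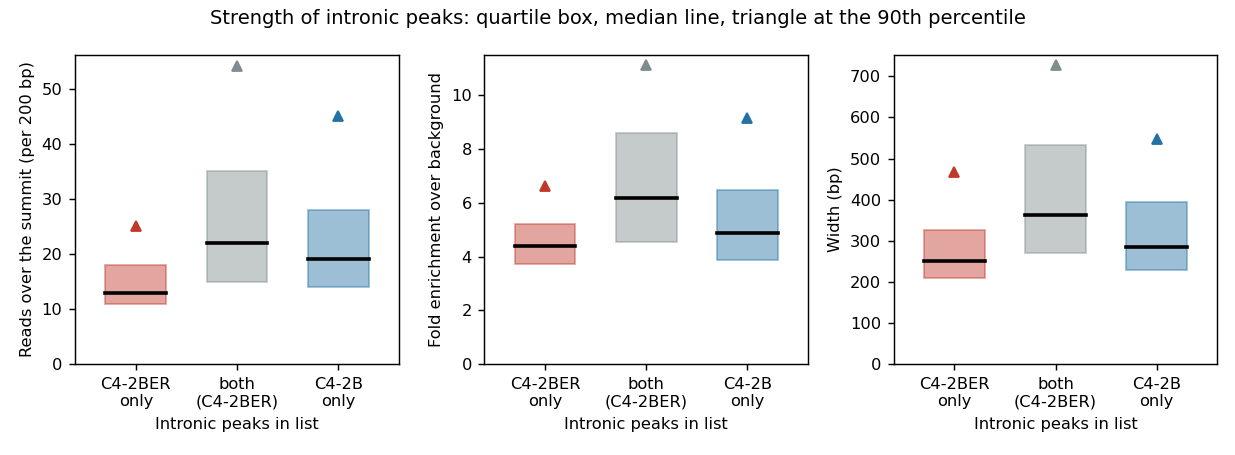
Reads over the summit, fold enrichment and width in bp of intronic peaks in 3 classes, with a box from the lower to the upper quartile, a line at the median and a triangle at the 90th percentile; values of peaks in both lists are those of the C4-2BER list. The gained peaks had the lowest median in each panel, with 13 reads, a fold of 4.39 and 250 bp.

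The 10 strongest gained peaks stood between the 93.0th and the 95.5th percentile of the C4-2BER list by −log10 p. The highest −log10 q was 81.9, at chr6:35318114-35318988 in an intron of DEF6, a guanine nucleotide exchange factor of immune cells, with 97 reads over the summit and a fold of 15.6. An intron of E2F2, a cell cycle transcription factor, held the next, at chr1:23521466-23522034 with 90 reads and a fold of 15.7. TEPP held a peak with 96 reads at chr16:57984546-57985526. MRC2, a receptor that takes up collagen, held one with 88 reads at chr17:62644269-62645072. The other 6 of the 10 strongest lay in NOTCH3, a Notch receptor (123 reads), ZDHHC19, a palmitoyltransferase (99 reads), MMP9, a matrix metalloproteinase (125 reads), IRAK2, an interleukin-1 receptor kinase (76 reads), ATP4A, the gastric proton pump (112 reads), and ALDH1L2, a mitochondrial folate enzyme (81 reads). The GC content of these 10 windows ran from 49.8% in ALDH1L2 to 74.6% in ATP4A, above the median of 47.3% for all gained peaks. The nearest C4-2B peak lay 0.587 kb away in ATP4A and 9.22 kb away in IRAK2, the nearest and farthest of the 10.

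Where the gained peaks lie within genes was examined next. The rule placed in introns 36.7% of the 24651 peaks of the C4-2BER list only (95% interval 36.1 to 37.3), 34.7% of the C4-2BER peaks of both lists and 42.8% of C4-2B-only peaks. The first intron of the reference transcript held 25.8% of the gained peaks that could be placed in an intron of that transcript (2023 of 7838), 25.5% of kept and 26.8% of lost peaks. The median gained peak lay 28.2 kb from the nearest protein-coding TSS, against 24.9 kb for kept and 26.6 kb for lost peaks. More than 100 kb from any such TSS lay 17.2% of gained peaks (95% interval 16.4 to 18.0), 13.6% of kept and 15.4% of lost peaks. The nearest C4-2B peak was a median of 5.55 kb away (5553 bp, quartiles 1771 and 12277 bp). It lay within 500 bp for 12.5% of gained peaks and more than 50 kb away for 236 of them. Another gained intronic peak lay within 10 kb of 21.8% of them (95% interval 20.9 to 22.6). As to the limits of the rule, 94 gained peaks lay at most 50 bp from a C4-2B peak, with a median of 12.5 reads, and 75 intronic peaks overlapped one by at most 50 bp, with a median of 11 reads. The 62 gained peaks at most 200 bp beyond the 2000 bp limit from a TSS held a median of 15 reads, and the 50 peaks of the same kind at most 200 bp inside it a median of 19.

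To see which genes carried the gained peaks, they were counted per host gene. At least 1 was found in 4606 of 19689 protein-coding genes, or 23.4%. A single gained peak was held by 2633 hosts, 2 to 4 by 1627 and 5 or more by 346. The latter held 2564 of the gained peaks (28.3%, 95% interval 27.4 to 29.3). A peak in overlapping genes was counted in each, which applied to 275 gained peaks. Hosts were long genes, with a median of 103 kb of intron against 22.0 kb for all genes and 471 kb for hosts of 5 or more. Of the genes in the decile with the most intron, 80.9% were hosts, against 11.6% in the fifth decile. The density changed far less, with 7.30 gained peaks per Mb of intron in the fifth decile and 7.55 in the longest. Over all introns there were 7.53 gained, 27.2 kept and 20.1 lost peaks per Mb.

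PCDH9, a protocadherin of neuronal adhesion, held the most gained peaks by count. Its introns (chr13:66302834-67230445, minus strand) held 34 gained, 14 kept and 5 lost peaks. The gained peaks spanned 786 kb, and their reads over the summit ran from 7 to 81 with a median of 14. The strongest, whose sequence is printed above, had its nearest C4-2B peak 64.3 kb away. AUTS2, a regulator of neurodevelopment, held 28 gained, 28 kept and 27 lost peaks, so the excess of gained over lost peaks seen in PCDH9 was not found there. RAD51B, of homologous recombination, held 19 gained, 41 kept and 24 lost peaks. CNTNAP2, a neurexin-family adhesion gene, held 19 gained and 31 lost peaks, and KCNMA1, the BK potassium channel, 18 and 27. DAB1, the adaptor of reelin signalling, held 18 gained and 27 lost peaks.

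Of the 15 genes with the most gained peaks, gained peaks outnumbered lost ones by 2-fold or more in 5. These were PCDH9, FAT3, CREB5, BBS9 and DACH1. FAT3, an atypical cadherin, held 18 gained, 6 kept and 7 lost peaks, and its promoter had a peak in the C4-2BER list only, while that of LRMDA had one in the C4-2B list only and those of the other 13 in both. CREB5, a bZIP transcription factor, held 16 gained, 4 kept and 5 lost peaks. BBS9, of the ciliary BBSome, held 16 gained, 14 kept and 5 lost peaks. DACH1, a transcription factor of the Dachshund family, held 15 gained, no kept and 2 lost peaks, and 4 of the gained peaks had a −log10 q of at least 10. Its strongest, at chr13:71712949-71713452, held 37 reads and lay 133 kb from any C4-2B peak. The other hosts of this group were ROBO2, a Slit receptor (18 gained and 12 lost), GMDS, of GDP-fucose synthesis (17 and 18), LRMDA (17 and 13), GPC6, a glypican (16 and 22), and PRKG1, a cGMP-dependent kinase (16 and 15). Of the 346 hosts of 5 or more gained peaks, 117 (33.8%, 95% interval 29.0 to 39.0) held more gained than lost peaks, close to the 1458 of all 4606 hosts (31.7%), and 6 had no kept peak.

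**Figure D2:**
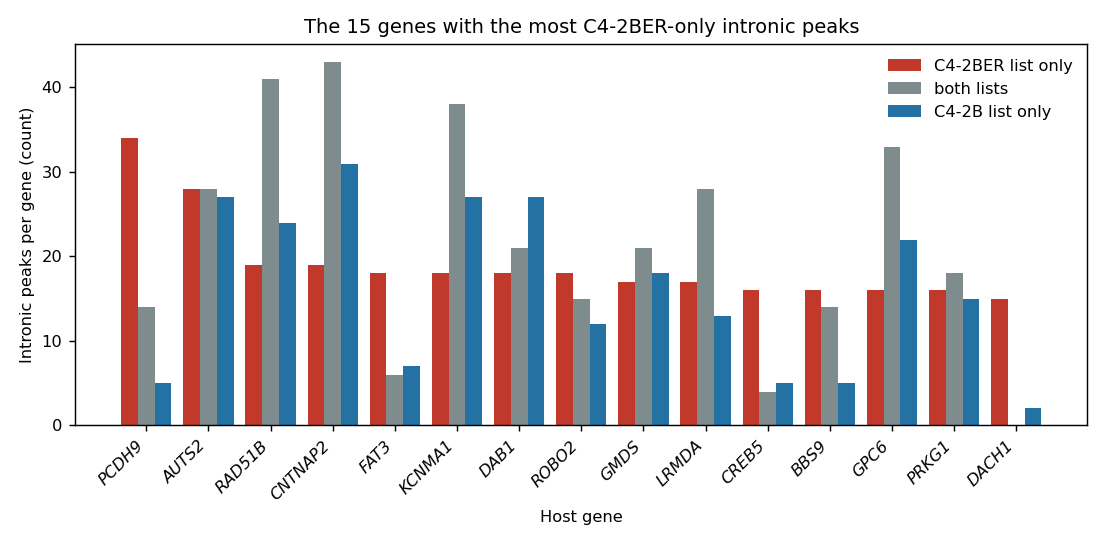
Counts of intronic peaks per gene in the C4-2BER list only, in both lists and in the C4-2B list only, for the 15 genes with the most in the C4-2BER list only. PCDH9 stands out with 34 gained and 5 lost peaks, and DACH1 has no peak of both lists, while CNTNAP2, KCNMA1 and DAB1 have more lost than gained peaks.

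Per kb of intron the order was another one. Among genes with 5 or more gained peaks, OLFML3, a secreted olfactomedin-like protein, had the highest density, with 5 peaks in 53.4 kb of intron, or 0.0937 per kb, against 0.00753 per kb over all introns. None of these 5 peaks lay in an intron of the reference transcript of OLFML3, so they were placed by its other transcripts. ZNF608, a zinc finger gene, held 8 gained, 3 kept and 3 lost peaks (0.0762 per kb), with 8 to 28 reads over their summits. ITGB8, an integrin subunit that activates TGF-beta, held 5 gained, no kept and 2 lost peaks (0.0715 per kb). Its 5 peaks were all weak, with 10 to 13 reads. BCL11A, a zinc finger repressor, held 5 gained, no kept and 2 lost peaks (0.0629 per kb). The gained peaks of BCL11A held 16, 36, 8, 14 and 31 reads, in order of position. LIMA1, an actin-binding gene, held 6 gained, 6 kept and no lost peaks (0.0591 per kb). KREMEN1, a receptor of the WNT inhibitor DKK1, held 5 gained and 1 lost peak (0.0573 per kb). LGR4, an R-spondin receptor, CLMN, SOBP and SYNJ2, a phosphoinositide phosphatase, had 0.0498, 0.0491, 0.0490 and 0.0477 per kb. A density over 5 to 8 peaks rests on few counts. No gene was among both the 15 highest by count and the 10 highest by density.

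**Figure D3:**
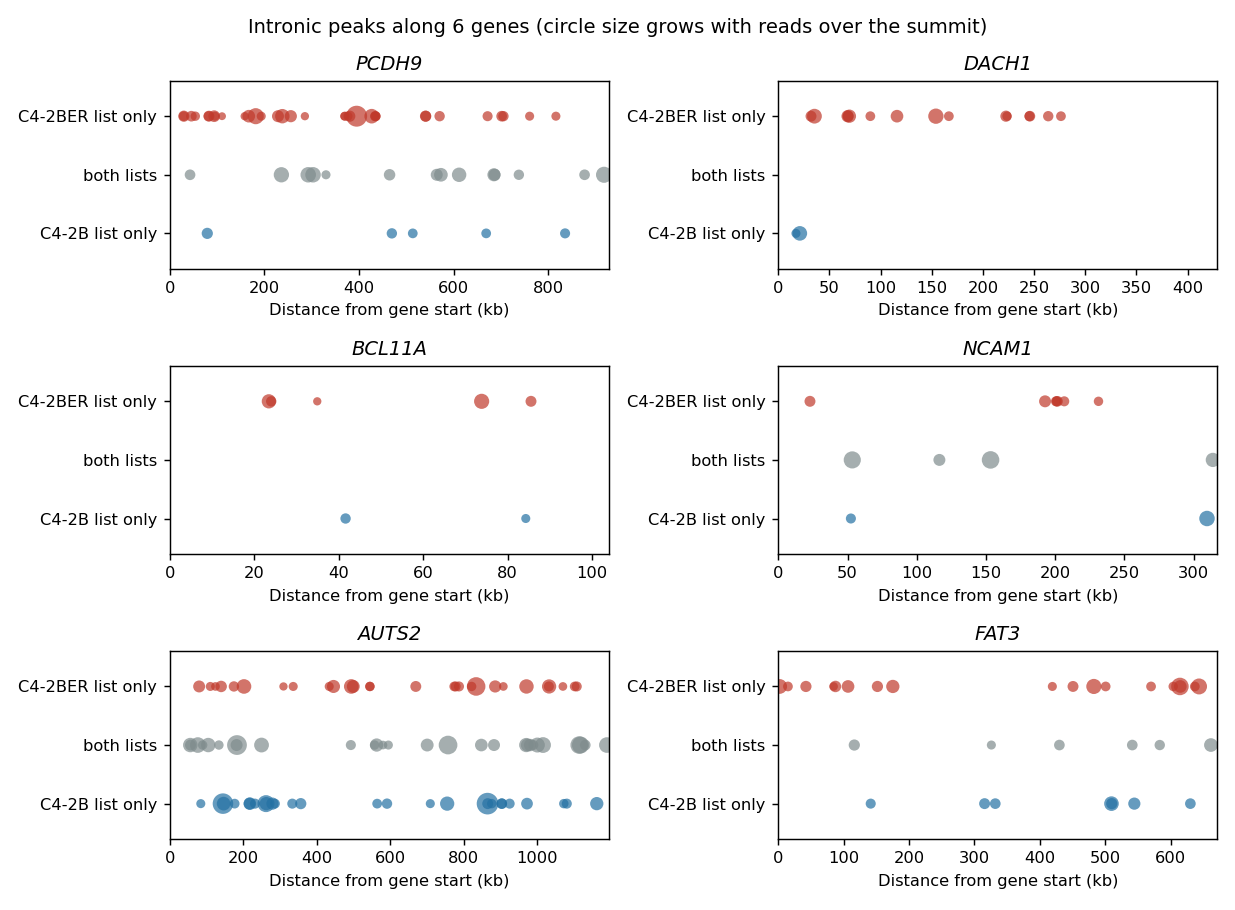
Position of intronic peaks along 6 genes in kb from the gene start, in rows for the C4-2BER list only, both lists and the C4-2B list only, with circle area growing with the reads over the summit. The 15 gained peaks of DACH1 lie away from its 2 lost peaks, which are near the gene start, the 34 of PCDH9 lie along most of the gene, and AUTS2 and FAT3 show all 3 classes along their length.

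The promoters of the hosts were mostly open in both lines. A promoter peak in both lists was found for 86.4% of the host genes (95% interval 85.4 to 87.4) and for 77.7% of all protein-coding genes. A promoter peak in the C4-2BER list only was found for 181 hosts (3.93%, 95% interval 3.41 to 4.53) and for 3.39% of all genes. In hosts of 5 or more gained peaks it was 15 of 346.

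Genes that the study names for adhesion, PAX5 or the neuroendocrine state were then looked up. NCAM1, the neural cell adhesion molecule CD56, held 7 gained, 4 kept and 2 lost peaks. The reads over the 7 summits were 16, 20, 13, 13, 15, 13 and 11 in order of position, and the 5 in the middle lay between chr11:113153651 and chr11:113167913, with no C4-2B peak within 38.8 kb. PAX5, a B-cell and neural transcription factor, held 7 gained, 8 kept and 7 lost peaks, with 9 to 31 reads over the gained summits. NRCAM, a neuronal adhesion molecule, held 7 gained and 6 lost peaks. GRID1, a glutamate receptor subunit, held 12 and 10, and NFASC, a neurofascin, 3 and 8. SRRM4, a neuronal splicing factor, held 4 gained, 4 kept and 1 lost peak, and its strongest, at chr12:119154467-119154834, held 60 reads. No gained intronic peak was found in VCAN, TNC, CD40, SNAP25, CHGA or SYP. CD40, CHGA and SYP have little intron, with 5.97, 9.11 and 5.43 kb. The promoter of CD40 had a peak in the C4-2BER list only, and those of VCAN, TNC, SNAP25, CHGA and SYP had one in both lists.

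Gene lists were compared by the gained share of their line-only intronic peaks, which does not depend on gene length. Over all genes it was 27.2% (95% interval 26.8 to 27.7). The lists were chosen with earlier results of these data known, so a share that stands out is a description and no independent evidence. The intervals count each peak singly, although many peaks lie in the same gene. The list named for HNF, gut-lineage and HOX-cofactor transcription factors also holds RUNX, TEAD, ETS-family, KLF and NFI genes. It had 114 gained and 157 lost peaks, or 42.1% (95% interval 36.3 to 48.0), and 31 of its 54 genes were hosts. Among its leading hosts were RUNX1 (12 gained and 24 lost), TEAD1, a Hippo pathway factor (9 and 3), KLF12 (9 and 2) and NFIA (7 and 15). None of these is an HNF gene, and all belong to the further families that the list holds. More gained than lost peaks were held by 11 genes of the list, and more lost by 24. Axon guidance genes had 154 gained and 317 lost peaks, or 32.7% (95% interval 28.6 to 37.1), led by ROBO2, ROBO1 (14 gained and 11 lost), SLIT3 (9 and 16) and SLIT2 (8 and 6), receptors and ligands of one pathway.

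The lists of neuronal genes were otherwise near the share of all genes. Neuronal adhesion and synapse organisers had 28.5% (239 gained and 600 lost), led by CNTNAP2, DAB1, PTPRD (12 and 9), MAGI1 (11 and 23), TENM4 (11 and 24) and DLGAP2 (11 and 26). Voltage-gated ion channels had 29.2%, with KCNMA1, KCNIP4 (9 and 7), CACNA1D (7 and 11), CACNA2D1 (7 and 6) and CACNA1C (7 and 21) among the leading hosts. Neurotransmitter receptors had 27.7%, led by GRID1, GRM8 (9 and 14) and GRM7 (7 and 18). Neuroendocrine markers and regulators had 28.8% (47 gained and 116 lost), with PAX5, RBFOX1 (5 and 14), SRRM4 and RBFOX3 (4 and 20) among the leading hosts. Genes of the epithelial-mesenchymal state, matrix and integrins had 28.2%, led by LAMA2, a laminin chain (9 and 4), CDH13 (7 and 15), LAMA4 (6 and 2), CDH4 (6 and 14) and CDH12 (6 and 10).

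Androgen-regulated and luminal genes had the lowest share, 21.7% (36 gained and 130 lost, 95% interval 16.1 to 28.6), an interval that includes the share of all genes. Hosts of this list included TSC22D3 (4 gained and no lost), and several with 2 gained peaks, among them NDRG1 and CDH1. WNT, Notch and receptor tyrosine kinase genes had 23.9% (81 gained and 258 lost), led by MAML3 (13 and 15), FGF12 (8 and 9), RBPJ (4 and 4), MAML2 (4 and 13) and ROR2 (4 and 9). The 16 housekeeping genes had 8 gained and 14 lost peaks, or 36.4%, with an interval of 19.7% to 57.0%, led by PPIA with 3.

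**Figure D4:**
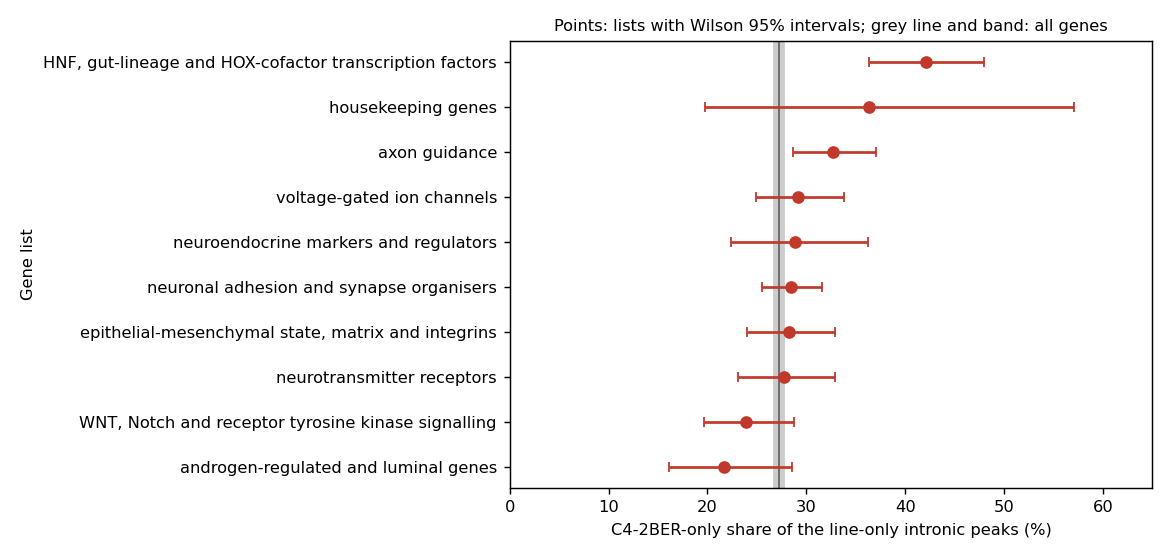
Gained share in percent of the line-only intronic peaks of 10 gene lists, with Wilson 95% intervals, beside the share of all protein-coding genes as a grey line and band. The list named for HNF, gut-lineage and HOX-cofactor factors, which also holds RUNX, TEAD, ETS-family, KLF and NFI genes, has 42.1%. RUNX1, TEAD1 and KLF12 are its leading hosts. Its interval lies above the band at 27.2%, as does that of axon guidance at 32.7%, while the other 8 intervals reach the band. All lists were chosen with earlier results of these data known.

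By chromosome, the gained share of line-only intronic peaks ran from 15.5% on chromosome 15 (183 gained and 994 lost, 95% interval 13.6 to 17.7) to 35.2% on chromosome 19 (241 and 443, 95% interval 31.7 to 38.9), leaving out chromosome Y with 5 gained peaks. For the kept peaks, a log2 ratio of reads over the summit, C4-2BER over C4-2B, was taken. The C4-2BER reads were first scaled to the depth of the C4-2B list, and the highest overlapping C4-2B peak was used. The median log2 ratio was −0.50 on chromosome 15, −0.10 on chromosome 19 and −0.39 over all kept intronic peaks. The part of such a difference over a whole chromosome in the gained shares was not tested. In 5 of the 15 genes with the most gained peaks, gained peaks outnumbered lost ones by 2-fold or more, as given above. The same median log2 ratio of kept peaks was 0.22 in PCDH9, −0.04 in FAT3, 0.29 in CREB5 and 0.11 in BBS9, and DACH1 had no kept peak. In genes named above from the study that held gained peaks, it was 0.70 in NCAM1 and 0.50 in SRRM4, with 4 kept peaks each. It was 0.11 in GRID1, 0.02 in DAB1, −0.11 in PAX5, −0.10 in NRCAM and −0.33 in NFASC. The part of these differences in the gene counts was not tested.

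The sequence of the gained peaks was compared with that of kept and lost peaks within 100 bp of the summit. The study's methods print the shift of reads at peak calling without its sign, and a shift the other way would displace the summits. The median CTCF match lay 20.5 bp from the summit in gained and in kept peaks. The median GC content was 47.3% in gained, 47.3% in kept and 44.8% in lost peaks. Of 34 motifs searched on both strands, HNF1 was the only one found in no lost peak. It was present in 45 gained peaks (0.497%, 95% interval 0.372 to 0.665), in 7 kept peaks (0.0214%), and in 0 of 24206 lost peaks, which allows a share of up to 0.0124% by a limit of 3 counts (0.0159% by the Wilson interval). All C4-2BER peaks held it in 0.106%. Within the gained peaks the share was higher in stronger ones, at 0.173% under a −log10 q of 5, 0.612% between 5 and 10, 0.923% between 10 and 20 and 1.82% (6 of 330) at 20 and over. The median match lay 23.5 bp from the summit. The 45 peaks lay in 45 genes or groups of overlapping genes on 18 chromosomes. The strongest were in BDH1, a ketone body enzyme (70 reads), MAST3, a kinase (67 reads), INPP4B, a phosphoinositide phosphatase and androgen-regulated tumour suppressor (33 reads), MAP3K9 (34 reads) and HIP1 (36 reads). GMDS and KCNMA1, among the hosts with the most gained peaks, held 1 each. When up to 1 mismatch was allowed, a choice made after seeing the data, the shares were 2.47% of gained, 0.361% of kept and 0.231% of lost peaks.

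HNF4 (CAAAGTCCA) was found in 68 gained peaks (0.752%, 95% interval 0.593 to 0.952), 0.334% of kept, 0.285% of lost and 0.409% of all C4-2BER peaks. At a −log10 q of at least 10 it was 1.56% of gained and 0.314% of lost peaks. The strongest lay in SUPT6H, a transcription elongation factor (76 reads), GNAQ, a G protein subunit, and DLGAP1, a synaptic scaffold. Gained peaks in FAT3 and ESR1 also held an HNF4 match. No gained peak held both HNF1 and HNF4. C4-2BER-only peaks outside protein-coding genes held HNF1 in 0.394% (46 of 11682) and HNF4 in 0.788%, close to the shares in introns.

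The androgen response element, a full site of steroid receptors, was found in 8 gained peaks (0.0884%, 95% interval 0.0448 to 0.174), 0.496% of kept, 2.02% of lost and 0.380% of all C4-2BER peaks. The shorter steroid receptor word AGAACA, which some full sites contain, was in 14.4% of gained, 17.5% of kept, 23.7% of lost and 14.3% of all C4-2BER peaks. Forkhead (TGTTTAC) was in 6.003% of gained (95% interval 5.53 to 6.51), 9.17% of kept, 12.2% of lost and 7.48% of all C4-2BER peaks. Weighted to the GC content of the gained peaks, the lost share was 10.9%. The word of the GATA factors, AGATAA, followed the same order, with 10.5%, 12.3% and 14.9%, and 9.83% of all C4-2BER peaks. Among gained, kept and lost peaks, all 4 were lowest in gained and highest in lost peaks. The shares of AGAACA and AGATAA in gained peaks were not below those in all C4-2BER peaks.

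CTCF stood between the classes, with 2.80% of gained (95% interval 2.48 to 3.16), 6.54% of kept, 0.901% of lost and 5.71% of all C4-2BER peaks. SP-KLF (GGGCGGG) was in 4.15% of gained, 3.62% of kept, 1.67% of lost and 10.8% of all C4-2BER peaks. Weighted to the GC content of the gained peaks, the kept share was 3.54% and the lost share 2.28%. Among gained peaks SP-KLF was in 2.65% under a −log10 q of 5 and in 19.7% (65 of 330) at 20 and over, where the median GC content was 54.7%. PBX-HOX (TGATTNAT) was in 3.604% of gained (95% interval 3.24 to 4.01), 2.94% of kept, 2.93% of lost and 2.55% of all C4-2BER peaks, and homeobox (TAATTA), which some HNF1 matches contain, in 4.65%, 3.74%, 4.11% and 3.22%.

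The NEUROD E-box (CAGATG) was in 15.6% of gained, 15.6% of kept, 15.5% of lost and 14.1% of all C4-2BER peaks. The PAX5 core (GCGTGAC) was in 61 gained peaks (0.674%, 95% interval 0.525 to 0.865), 0.579% of kept, 0.421% of lost (95% interval 0.347 to 0.511) and 0.985% of all C4-2BER peaks. Weighted to the GC content of the gained peaks, the lost share was 0.520%. At a −log10 q of at least 10 the PAX5 core was in 20 gained peaks (1.41%, 95% interval 0.917 to 2.17). At that cut it was in 0.711% of kept (95% interval 0.599 to 0.845) and 0.314% of lost peaks (95% interval 0.219 to 0.451). These shares were not weighted to GC content, whose median was 49.8% in the gained peaks at that cut and 47.3% in all gained peaks. REST, a repressor of neuronal genes, was in 4 gained peaks (0.0442%), 0.202% of kept, 0.0620% of lost and 0.212% of all C4-2BER peaks. AP-1 (TGANTCA) was in 6.81%, 7.91%, 7.87% and 6.70%.

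**Figure D5:**
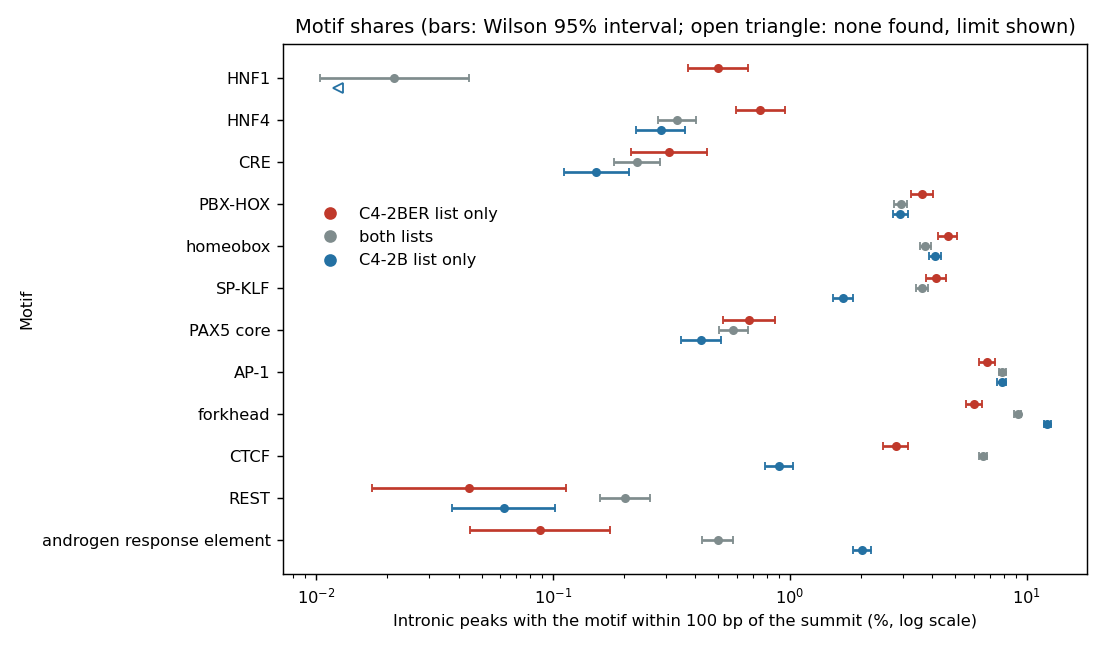
Share in percent (log scale) of intronic peaks with each of 12 motifs within 100 bp of the summit, for peaks of the C4-2BER list only, both lists and the C4-2B list only, with Wilson 95% intervals; the open triangle is the limit for a motif found in no peak. HNF1 and HNF4 are highest in the gained peaks, at 0.497% and 0.752%, and the androgen response element is lowest there, at 0.0884%.

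Sequence shared between peaks was also counted. A stretch of 25 bases found in at least 5 windows, a mark of repeated sequence, was present in 14.9% of gained peaks (95% interval 14.2 to 15.6), 9.48% of kept and 11.6% of lost peaks. Of the C4-2BER-only peaks outside protein-coding genes, 19.8% held one. Of the 45 gained peaks with HNF1, 2 held such a stretch, and of the 68 with HNF4, 4 did. The part of repeated sequence in the calling of these peaks was not tested.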

How the data were processed

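Per the study's methods, ATAC-seq reads were trimmed with cutadapt, aligned to hg38 with Bowtie2, filtered on mapping quality and deduplicated, and the 2 libraries of a line were merged before peaks were called (macs2, nomodel, 200 bp extension and a shift of 100 bp printed without a sign; version not given in the sources used here). Deposited by the authors are, for each summit, a fold enrichment (ratio to local background), −log10 p and −log10 q values, a score derived from q (not used here) and the summit offset in bp. Each interval was counted once, with its summit of highest −log10 p.

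Reads over a summit were solved from the deposited fold and −log10 p, which gave whole numbers for 100% of peaks within 0.001 in −log10 p (tested on simulated data); the floors of the background, 2.24 (C4-2B) and 1.87 (C4-2BER) reads per 200 bp, gave the depth ratio. Genes came from GENCODE release 44; exons of any transcript counted, intron numbers are those of the canonical transcript, and density is peaks per kb of non-exonic gene body. Named singly were the 15 hosts with the most peaks, the 10 with the most per kb among hosts of 5 or more, the 10 strongest peaks, genes the study names, and the 4 leading hosts of each list; ESR1 and the other HNF-motif hosts were chosen after their values were seen. Members and lists were chosen with earlier results of these data known. Some genes and a motif within these rules are not reported here. Repeat annotation was not used here. Python 3.11.15, pandas 2.3.3 and scipy 1.17.1 were used.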

Additional observations from a re-analysis of the deposited data

How the results depend on the processing

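Each of 8 results was recomputed under 9 other settings, with a wider window added for the 3 motif shares. Requiring a −log10 q of at least 10 left 1414 peaks in 1189 hosts with a median of 8.78 gained peaks per Mb of intron of a host, in place of 9046, 4606 and 16.0. Requiring 5 left 5011 peaks. At 10 and 5 the CTCF share was 3.25% and 3.69% (2.80% without), and the forkhead share 6.86% and 6.65% (6.003% without). Forkhead and AP-1 became 11.1% and 11.8% in a window of 250 bp either side of the summit. With TSSs of all transcripts the first-intron share was 27.1% in place of 25.8%. The HNF1 share, with 1 mismatch allowed after seeing the data, became 2.47%. The other 64 values stayed within a set range. For a share this was the Wilson interval of the original value, and for a count a change of under 1.5 times. For a median it was the quartiles of the peaks or hosts, which show spread and not the error of the median. By that rule a density of 11.5 per Mb at a −log10 q of at least 5 counted as unmoved. So did a median GC content of 49.8% at 10, in place of 47.3%. The number of peaks under the settings that left it unmoved ran from 7913 (C4-2B peaks within 500 bp taken as shared) to 11421 (sharing judged by summits within 200 bp).

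No paired analysis was possible because the libraries of a line were merged before peaks were called, and no replicate was left out for the same reason. Sites with fewer reads than the weakest listed peak, 7 in C4-2BER and 8 in C4-2B, are not in the lists, so the absence of a C4-2B peak does not show closed chromatin.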

Other observations

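Some genes held gained intronic peaks and no other intronic peak in either list. There were 409 such hosts among the 4606 hosts, of all of which 2633 held a single gained peak. The most gained peaks in a gene of the 409, 4, lay in PSG9, a pregnancy-specific glycoprotein. SMG9, of nonsense-mediated decay, CPZ, a carboxypeptidase, SLC47A2, a renal transporter, and TBX18, a T-box factor, held 3 each, as did CNOT6, SPC25, RPGRIP1L and TMPRSS15, the gut enzyme enteropeptidase. The promoters of PSG9 and SLC47A2 had a peak in the C4-2B list only. Of the 3 in SMG9, 2 had a −log10 q of at least 10. Among hosts of 5 or more gained peaks without a kept one, PCDH7, a protocadherin, held 8 gained and 2 lost peaks, and KLHL1, an actin-organising neuronal protein, 7 and 1. KLHL1 had no promoter peak in either list. BACH2 and KLF12, both transcription factors, held 9 gained and 2 lost peaks each. The median log2 ratio of kept peaks was 0.66 over 4 peaks in BACH2 and 0.73 over 2 in KLF12. The part of this in their counts was not tested. All of these genes were chosen after their values were seen.

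Among words of 7 bases, GCGCCCC was in 2.54% of gained, 1.81% of kept and 0.454% of lost peaks, and GTAAATA, part of longer forkhead sites, in 4.23%, 6.86% and 9.74%. The word ATTAACC was in 2.27%, 1.35% and 1.24%.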
